A study of Homo sapiens with 9 samples.

Results

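The genes described here are 43 genes of epithelial junctions and keratins, out of 21743 genes that the arrays name: the adhesion molecules of the adherens junction, claudins and other tight junction proteins, polarity and desmosome proteins, keratins, epithelial regulators of transcription and splicing, and a membrane serine protease with its inhibitors. They were chosen by function, but with earlier results of these data known. Each is represented by the probe of a RefSeq transcript of the gene with the highest mean over the 9 arrays. RNA was measured on single-colour Agilent arrays in 3 groups of 3 arrays. Parental A549, a line from a human lung adenocarcinoma, was taken untransduced. OSK-A549-Colony and OSK-A549-SN are A549 cells carrying retroviral OCT3/4, SOX2 and KLF4, and were harvested at later passages than the parental cells. Brief trypsin separated them: colony cells stayed on the dish, and spindle-shaped SN cells, which had grown out around the colonies, detached. The arrays analysed here include no cells transduced with a control vector, so that passage number, viral infection and the 3 factors cannot be told apart in any comparison with parental A549.

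Epithelial cells are joined near their apical side by tight junctions, whose strands are built of claudins and occludin and are tied to the cytoskeleton by zonula occludens proteins and cingulin. Beneath them lie adherens junctions built on E-cadherin, and desmosomes, which anchor keratin filaments at the cell border. During an epithelial-mesenchymal transition, E-cadherin and many of these genes are repressed by ZEB, SNAI and TWIST factors, which bind E-box sequences, while the ESRP, GRHL and OVOL proteins belong to the epithelial program. Simple epithelia such as that of the lung make the keratins KRT7, KRT8, KRT18 and KRT19.

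Within a group the arrays correlated at r = 0.983 to 0.997 over the 23758 probes detected on every array. OSK-A549-SN replicate 3 was alone on slide 2, and the other 8 arrays shared slide 1. The cells carried epithelial markers: 37 to 40 of the 43 genes were well above background on each array. Of 8 markers of lung epithelium, 4 to 6 were above background on each array, with NAPSA, SFTPC, SFTPD and SCGB1A1 so on all 9 and NKX2-1 and SLC34A2 on none. Of the markers of other cell types, 0 to 1 of 7 fibroblast genes, 2 to 3 of 7 endothelial genes and 3 to 4 of 5 leukocyte genes were above background. CDH5 and VWF among the endothelial genes and PTPRC, CD14 and CD68 among the leukocyte genes were so on all 9 arrays, and PECAM1 and DCN on none. CD68, a lysosomal protein abundant in macrophages, differed from parental A549 by 1.04 on the log2 scale in the colony cells (limma adjusted p = 0.027) and 1.03 in the SN cells (adjusted p = 0.058). Of 26 mesenchymal genes, 13 to 17 were above background on each array, 13 of them on all 9 (CDH2, VIM, FN1 and ZEB1 included) and 8 on none (ZEB2, COL1A2, COL3A1 and MMP2 included). CDH2, encoding N-cadherin, and VIM, encoding vimentin, were higher on all 6 transduced arrays than on every parental one. CDH2 passed limma's F test across the 3 groups (adjusted p = 0.032) and VIM did not (adjusted p = 0.098), and no pairwise test of either passed. FN1, encoding fibronectin, was lower on all 3 SN arrays than on every parental one, with a difference of -1.33 (adjusted p = 0.070). COL5A1, a collagen gene, rose by 1.57 in the colony cells (limma adjusted p = 0.037) and 1.61 in the SN cells (adjusted p = 0.047), and TWIST2 fell by 1.02 in the colony cells (adjusted p = 0.042). Of the other ZEB, SNAI and TWIST genes, ZEB1 was higher on all 6 transduced arrays than on every parental one, and SNAI1 on all 3 SN arrays. Neither passed the F test (limma adjusted p = 0.10 and 0.0504), nor did TWIST1 (adjusted p = 0.71). SNAI2 was above background on 3 of the 9 arrays. CD68, COL5A1 and the ZEB, SNAI and TWIST genes are named after their values were seen. Of the mesenchymal genes tested, 10 of 16 were higher in the colony cells, with a median difference of 0.12, and 13 of 18 in the SN cells, with a median of 0.34. Over all genes tested, 8637 of 16359 were higher in the colony cells (median 0.03) and 9909 of 16732 in the SN cells (median 0.09). The part of the mesenchymal genes in the members' differences was not tested. The summed level of 26 mesenchymal genes, in units of the array's 75th percentile, was 569 to 820 in parental A549, 635 to 673 in OSK-A549-Colony and 672 to 783 in OSK-A549-SN. The methods state that the RNAs came from 3 separate transduction experiments, and p-values measure the spread between these arrays. Since each RNA came from a bulk sample of cells, a lower signal from fewer expressing cells and one from less RNA per cell cannot be told apart.

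At an adjusted p under 0.05 in limma, the colony cells carried less RNA of E-cadherin, cingulin and MARVELD3 than parental A549. They carried more of PKP3 and the keratin gene KRT80, and the SN cells carried less of MARVELD3. In the SN cells E-cadherin and cingulin also lay below every parental array, and PKP3 and KRT80 above, without passing. Among the 40 members tested in OSK-A549-Colony, 13 were higher and 27 lower than in parental A549. Their median log2 difference was -0.24, against 0.03 over all 16359 genes tested. In limma with Benjamini-Hochberg adjustment over all probes, 5 of the 40 passed an adjusted p under 0.05. CDH1, CGN and MARVELD3 fell and PKP3 and KRT80 rose. Of all 30864 probes, 9.02% passed at that threshold, 4.29% higher and 4.72% lower. MARVELD3 was the member that also differed by more than 2-fold, which 3.7% of all probes did. That fold used 2 colony arrays on which MARVELD3 was not above background, and with these arrays set to their lowest signal called above background it was at least 1.86-fold. In OSK-A549-SN, 13 of the 41 members tested were higher and 28 lower, with a median of -0.20 against 0.09 over all genes. MARVELD3 was the single member past the threshold there, against 1.82% of all probes at any fold and 1.55% at over 2-fold. The 3 colony arrays lay wholly above the 3 parental ones for 8 members and wholly below for 17, against 20.9% and 20.7% of all probes, and the SN arrays did so for 6 and 17 members, against 16.8% and 15.2%. Leaving out single arrays ended many of these calls, of members and of all probes alike. Without parental replicate 1 or parental replicate 3, 4 and 5 members passed in the colony cells, and 2452 and 4182 of all probes. The members that passed were partly others: CDH1, KRT80, CLDN3 and PPL without replicate 1, and CDH1, KRT80, PKP3, TJP3 and GRHL1 without replicate 3. CGN and MARVELD3 passed in neither. Without parental replicate 2, OSK-A549-Colony replicate 2 or OSK-A549-Colony replicate 3, no member passed in the colony cells, and 1, 0 and 85 of all probes did, against 2783 with all 6 arrays. Without OSK-A549-Colony replicate 1, MARVELD3 was the single member among 141 probes. The difference of CDH1 stayed between -1.08 and -0.83 as arrays were left out. In OSK-A549-SN no member passed without any 1 of the 6 arrays, where 0 to 190 probes did, or with slide as a block, where 187 did, against 586.

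**Figure D1:**
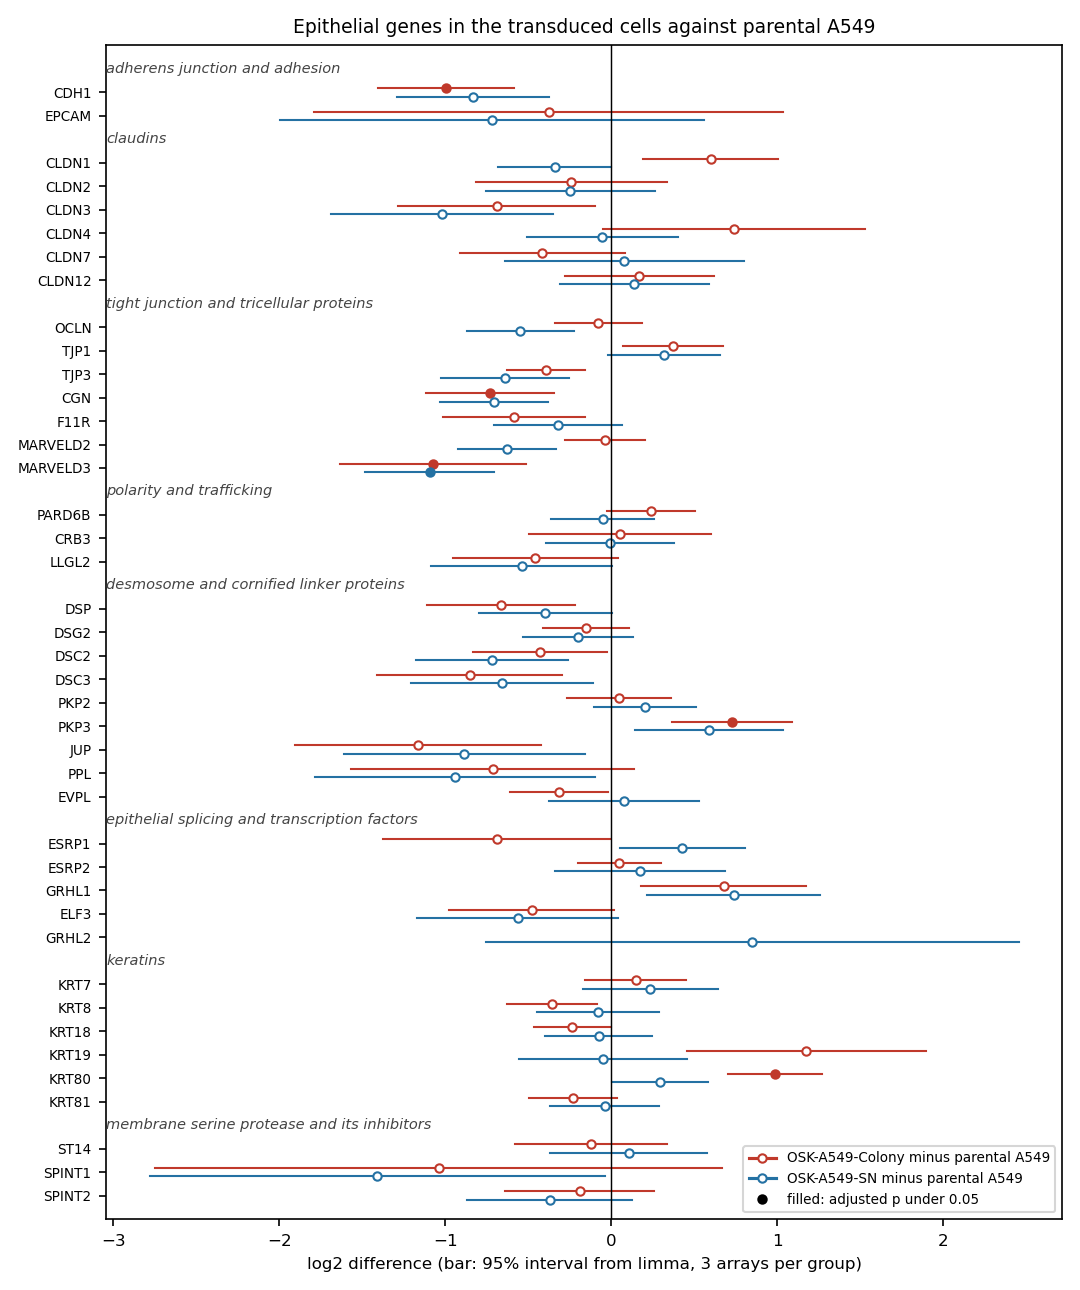
Log2 difference from parental A549 for each tested member, grouped by role, in OSK-A549-Colony (red) and OSK-A549-SN (blue), with 95% intervals from limma on 3 arrays per group. Filled points passed an adjusted p under 0.05: 5 in red and 1 in blue. Most points of the tight junction and desmosome groups lie left of 0 in both colours, whereas PKP3, TJP1 and GRHL1 lie to the right in both.

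CDH1 encodes E-cadherin, the homophilic adhesion molecule of adherens junctions, which the study also stained. Its log2 level, relative to the 75th percentile of the array, was 3.26, 3.26 and 3.75 in parental A549. It was 2.44, 2.49 and 2.35 in OSK-A549-Colony and 2.44, 2.71 and 2.62 in OSK-A549-SN. Every transduced array lay below every parental one, and the colony and SN arrays overlapped. The difference from parental A549 was -0.996 ± 0.165 (SE, n = 3 arrays per group; limma adjusted p = 0.032) in the colony cells and -0.83 ± 0.19 (adjusted p = 0.086) in the SN cells. Between colony and SN cells CDH1 differed by -0.16, with a 95% interval of -0.42 to 0.10. EPCAM, an adhesion molecule of simple epithelia, varied more within the groups than between them. Its log2 level was 3.15, 2.43 and 1.72 in parental A549, 3.06, 1.84 and 1.27 in the colony cells and 2.57, 1.59 and 0.98 in the SN cells. Replicate 1 was the highest and replicate 3 the lowest in each group. The difference from parental A549 was -0.38 (limma adjusted p = 0.68) in the colony cells and -0.72 (adjusted p = 0.46) in the SN cells.

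Limma's F test across the 3 groups was passed by 10 members, against 11.4% of all 33083 probes. Of the 10, 5 were among the 7 tight junction and tricellular genes other than claudins, and CLDN1 was among the 6 claudins. With 1 array left out in turn, between 2 and 9 members passed, KRT80 and MARVELD2 in each, while the number of all probes that passed ran from 986 to 3980, against 3778 with all 9 arrays. CGN, TJP3 and MARVELD3 were lower in both transduced groups, and OCLN and MARVELD2 in the SN cells. CGN, encoding cingulin, was at log2 levels of 2.63, 2.55 and 2.50 in parental A549, 2.12, 1.66 and 1.69 in the colony cells and 1.83, 1.99 and 1.73 in the SN cells. All 6 transduced arrays lay below the 3 parental ones, by -0.73 ± 0.15 (SE; limma adjusted p = 0.046) in the colony cells and -0.71 ± 0.13 (adjusted p = 0.063) in the SN cells. TJP3, the scaffold zonula occludens 3, was at -0.42, -0.52 and -0.47 in parental A549, -0.80, -0.93 and -0.86 in the colony cells and -1.29, -0.86 and -1.20 in the SN cells. Here too the parental arrays stood above all others, and the differences were -0.39 (limma adjusted p = 0.061) and -0.64 (adjusted p = 0.098). MARVELD3, a tetraspan protein of the tight junction, was dim: it was well above background on all 3 parental arrays and on 1 of 3 in each transduced group. Its log2 level was -3.19, -3.14 and -3.20 in parental A549, -3.76, -4.40 and -4.58 in the colony cells and -4.07, -4.21 and -4.53 in the SN cells. The differences were -1.07 ± 0.23 (SE; limma adjusted p = 0.046) and -1.09 ± 0.16 (adjusted p = 0.043) as measured, and neither passed under normexp background correction. With the dim arrays set to their lowest signal called above background, MARVELD3 was at least 1.86-fold lower in the colony cells. In the SN cells, where it was above background on 1 of 3 arrays, each value already exceeded that lowest signal. The rule changed nothing there, and the fold of 2.13 is the measured one. A second MARVELD3 probe, above background on 2 of the 9 arrays, gave -0.21 (limma adjusted p = 0.81) in the colony cells and -0.83 (adjusted p = 0.43) in the SN cells.

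OCLN and MARVELD2 were at their lowest in the SN cells and at similar levels in the other groups. OCLN encodes occludin, and MARVELD2 encodes tricellulin, which seals the corners where neighbouring cells meet. They are adjacent protein-coding genes on chromosome 5. OCLN was at log2 levels of -1.31, -1.07 and -1.25 in parental A549, -1.30, -1.28 and -1.29 in the colony cells and -1.70, -1.75 and -1.82 in the SN cells. MARVELD2 was at -0.90, -0.89 and -0.76 in parental A549, -0.92, -0.91 and -0.82 in the colony cells and -1.51, -1.51 and -1.42 in the SN cells. For both genes all SN arrays lay below the other 6, and the colony and parental arrays overlapped. In limma's F test the adjusted p was 0.026 for OCLN and 0.013 for MARVELD2. The pairwise differences missed the threshold: SN against parental A549 gave -0.55 (limma adjusted p = 0.095) for OCLN and -0.63 (adjusted p = 0.066) for MARVELD2, and colony against SN gave 0.47 (adjusted p = 0.11) and 0.59 (adjusted p = 0.10). Colony against parental A549 gave -0.08 for OCLN, with a 95% interval of -0.34 to 0.18, and -0.04 for MARVELD2, with an interval of -0.28 to 0.20. A second OCLN probe gave -0.28 in the SN cells and 0.28 in the colony cells against parental A549, neither past the threshold. Of the tight junction genes other than claudins, TJP1 and F11R passed no test. TJP1, encoding the scaffold zonula occludens 1, was higher than the parental mean by 0.37 in the colony cells (limma adjusted p = 0.11) and by 0.32 in the SN cells (adjusted p = 0.26). F11R, encoding junctional adhesion molecule A, stood at -0.59 (limma adjusted p = 0.088) and -0.32 (adjusted p = 0.30).

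The start regions of the adjacent pair OCLN and MARVELD2 are shown with that of CRB3, the member with the most E-boxes, because the repressors of E-cadherin bind this motif. Each window runs from 250 bases before to 50 after the transcription start, is taken from RefSeq on GRCh38.p14, plus strand, and has the E-box, CACCTG or its reverse complement CAGGTG, in capitals.
OCLN, chr5:69492297-69492596: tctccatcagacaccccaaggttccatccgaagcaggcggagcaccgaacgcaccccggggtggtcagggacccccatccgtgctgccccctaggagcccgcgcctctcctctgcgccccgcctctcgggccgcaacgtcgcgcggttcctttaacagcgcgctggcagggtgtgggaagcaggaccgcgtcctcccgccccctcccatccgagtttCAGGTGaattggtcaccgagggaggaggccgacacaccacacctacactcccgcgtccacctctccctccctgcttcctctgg
MARVELD2, chr5:69414866-69415165: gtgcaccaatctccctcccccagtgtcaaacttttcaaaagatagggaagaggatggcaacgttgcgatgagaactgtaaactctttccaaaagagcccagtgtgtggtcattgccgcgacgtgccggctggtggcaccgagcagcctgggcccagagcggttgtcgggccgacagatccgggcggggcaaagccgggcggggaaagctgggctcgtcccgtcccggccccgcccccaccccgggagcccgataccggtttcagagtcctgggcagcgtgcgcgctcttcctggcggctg
CRB3, chr19:6464021-6464320: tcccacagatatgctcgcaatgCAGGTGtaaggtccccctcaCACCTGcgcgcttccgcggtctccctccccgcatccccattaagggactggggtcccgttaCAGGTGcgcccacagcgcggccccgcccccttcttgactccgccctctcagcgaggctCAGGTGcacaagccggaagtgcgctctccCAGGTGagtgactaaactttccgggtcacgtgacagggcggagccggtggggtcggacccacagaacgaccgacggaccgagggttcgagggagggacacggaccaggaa
OCLN had 1 E-box, whose first base lay at -33 from the start, MARVELD2 had none, and CRB3 had 5, at -228, -208, -147, -89 and -60. Of the 43 members, 22 had such a window, and 9 of these (40.9%) held at least 1 E-box, against 20.6% of 27305 human start regions. At least 2 E-boxes were found in 4 of the 22 (18.2%) and in 3.47% of all. Of the 9 members with an E-box, OCLN passed the F test, and of the 13 without one, CLDN1, TJP3, CGN and MARVELD2 did. The other members past the F test, CDH1, MARVELD3, PKP3, KRT19 and KRT80, had no window and were not searched. CRB3, a small membrane protein of the apical polarity complex, was at nearly the parental level in both transduced groups, with differences of 0.05 (95% interval -0.49 to 0.60) and -0.01 (-0.40 to 0.38). The grainyhead site AACCGGTT was in none of the 22 windows and in 0.117% of all windows. A match in these letters is a description of sequence and says nothing of which protein is bound.

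Of the 6 claudins, the strand-forming proteins of the tight junction, CLDN1 passed the F test (limma adjusted p = 0.022) and no claudin passed a pairwise test. CLDN1 was at log2 levels of 1.84, 2.03 and 1.80 in parental A549, 2.31, 2.37 and 2.79 in the colony cells and 1.69, 1.47 and 1.49 in the SN cells. The colony arrays thus lay above every parental array and the SN arrays below. The difference from parental A549 was 0.60 (limma adjusted p = 0.077) in the colony cells and -0.34 (adjusted p = 0.23) in the SN cells, and that between colony and SN cells was 0.94 ± 0.16 (SE; adjusted p = 0.11). CLDN3 and CLDN4, adjacent protein-coding genes on chromosome 7, stood on opposite sides of 0 in the colony cells. CLDN3 was at 0.88, 1.59 and 1.73 in parental A549, 0.74, 0.73 and 0.66 in the colony cells and 0.35, 0.66 and 0.14 in the SN cells, below every parental array in both. The differences of CLDN3 were -0.69 (limma adjusted p = 0.12) and -1.02 (adjusted p = 0.11). CLDN4 was at -0.71, -0.72 and -0.36 in parental A549 and at 0.81, -0.03 and -0.35 in the colony cells, a difference of 0.74 (limma adjusted p = 0.19) that was carried mostly by replicate 1. CLDN2, CLDN7 and CLDN12 differed from parental A549 by between -0.42 and 0.17, with adjusted p of 0.23 or more in limma.

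**Figure D2:**
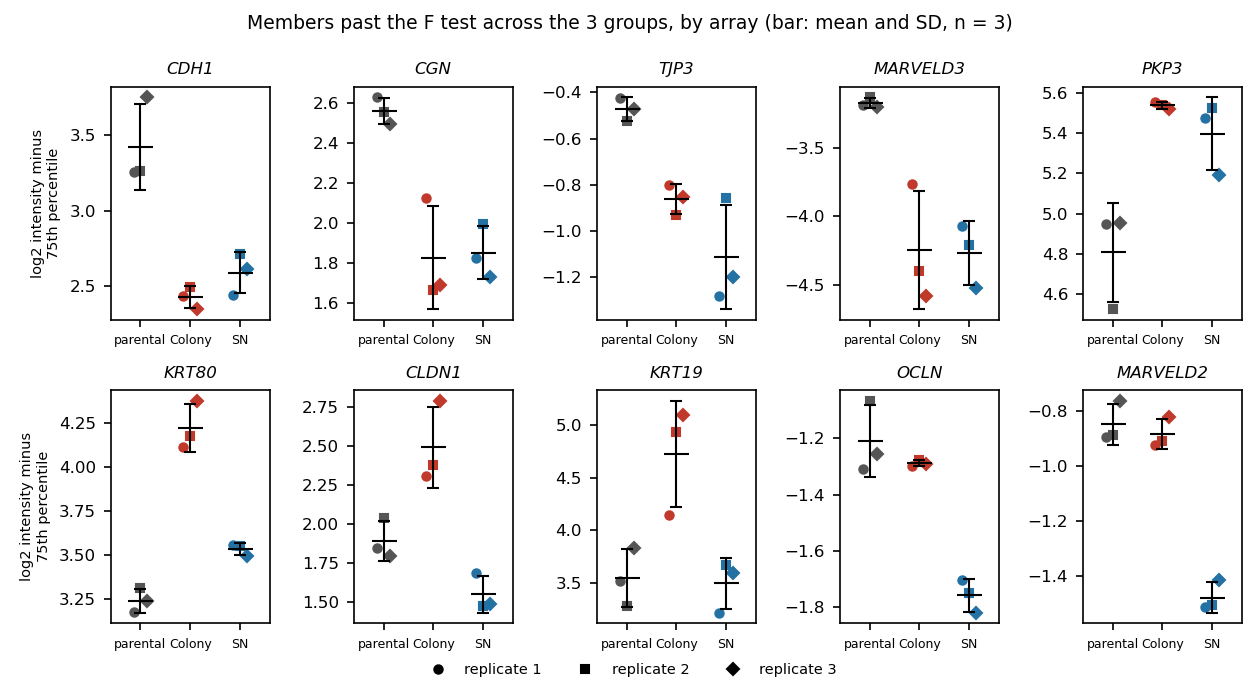
Log2 intensity minus the array's 75th percentile on each array for the 10 members past the F test, by group, with replicates 1, 2 and 3 as circles, squares and diamonds and the mean and SD as black bars. CDH1, CGN, TJP3 and MARVELD3 are lower in both transduced groups, OCLN and MARVELD2 in OSK-A549-SN, and KRT19 and KRT80 are highest in OSK-A549-Colony; each panel has its own vertical scale.

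Desmosome genes lay mostly below the parental level, in 7 of 9 cases in the colony cells and 6 of 9 in the SN cells, but the one that passed was higher. PKP3 encodes plakophilin 3, an armadillo protein of the desmosomal plaque. Its log2 level was 4.95, 4.53 and 4.96 in parental A549, 5.55, 5.54 and 5.52 in the colony cells and 5.47, 5.53 and 5.19 in the SN cells. All transduced arrays exceeded all parental ones, by 0.73 ± 0.15 (SE; limma adjusted p = 0.043) in the colony cells and 0.59 ± 0.18 (adjusted p = 0.15) in the SN cells. JUP encodes plakoglobin, which links both desmosomes and adherens junctions to the cytoskeleton, and its difference was the largest of the desmosome genes in the colony cells. It was at 4.59, 4.98 and 5.46 in parental A549, 4.29, 3.75 and 3.50 in the colony cells and 4.30, 4.39 and 3.69 in the SN cells. The parental arrays lay above all 6 transduced ones, and the colony and SN arrays overlapped. The spread within groups was wide, and the differences of -1.17 ± 0.30 (SE; limma adjusted p = 0.068) and -0.89 ± 0.30 (adjusted p = 0.17) missed the threshold. DSP, encoding desmoplakin, the protein that joins keratin filaments to the plaque, stood at -0.66 (limma adjusted p = 0.075) and -0.40 (adjusted p = 0.23), and its second probe at -0.67 and -0.34. DSC3 and DSC2, adjacent desmocollin genes on chromosome 18, stood at -0.85 and -0.43 in the colony cells and at -0.66 and -0.72 in the SN cells. PPL, encoding the cornified envelope linker periplakin, ranged from -1.44 to -0.08 over the parental arrays, and its difference in the SN cells was -0.94 (limma adjusted p = 0.19). EVPL stood at -0.32 and 0.08, and DSG2 and PKP2 differed from parental A549 by no more than 0.20 in either direction.

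Of the keratins of simple epithelia, KRT7, KRT8 and KRT18 passed neither the F test nor a pairwise test. They correspond to the proteins that the study stained with antibodies to CK7 and CAM5.2. KRT7 was at log2 levels of 8.87, 8.88 and 9.19 in parental A549, 9.11, 9.12 and 9.15 in the colony cells and 9.28, 9.35 and 9.01 in the SN cells. Its differences were 0.15 (95% interval -0.16 to 0.45) and 0.24 (-0.17 to 0.64). KRT8 was at 7.12, 7.07 and 7.27 in parental A549, 6.70, 6.80 and 6.88 in the colony cells and 7.00, 7.27 and 6.94 in the SN cells. The colony arrays lay below the others, by -0.36 against parental A549 (limma adjusted p = 0.097), and the SN difference was -0.08 (-0.45 to 0.29). KRT18, the partner of KRT8 and its neighbour on chromosome 12, was at 9.90, 9.93 and 9.99 in parental A549, 9.64, 9.74 and 9.74 in the colony cells and 9.89, 9.99 and 9.72 in the SN cells. Its differences were -0.24 (limma adjusted p = 0.16) and -0.08 (adjusted p = 0.75). KRT81 stood at -0.23 and -0.04. KRT8 and KRT18 have many processed pseudogenes and KRT81 a near-identical neighbour, so that signal from copies cannot be separated by these probes.

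KRT80 and KRT19 were the keratins that differed among the groups. KRT80, a type II keratin found in many epithelia, is adjacent to KRT7 on chromosome 12. It was at log2 levels of 3.17, 3.31 and 3.23 in parental A549, 4.12, 4.18 and 4.38 in the colony cells and 3.56, 3.55 and 3.49 in the SN cells. The 3 groups did not overlap, with the SN cells between the other groups. The difference from parental A549 was 0.99 ± 0.11 (SE; limma adjusted p = 0.020), 1.98-fold, in the colony cells and 0.30 ± 0.12 (adjusted p = 0.22) in the SN cells, and colony minus SN was 0.69 ± 0.10 (adjusted p = 0.10). Its F test gave the lowest adjusted p of the members, 0.0075. KRT19, the smallest keratin, was at 3.53, 3.29 and 3.83 in parental A549, 4.15, 4.93 and 5.09 in the colony cells and 3.22, 3.67 and 3.60 in the SN cells. All colony arrays exceeded the other 6, and the parental and SN arrays overlapped. The difference was 1.18 ± 0.29 (SE; limma adjusted p = 0.063) between colony and parental cells and 1.22 ± 0.28 (adjusted p = 0.13) between colony and SN cells, and the F test gave an adjusted p of 0.037.

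Keratins outside the 43 genes included several that parental A549 did not show above background. Of 25 other keratin genes with a probe, 8 or 9 were well above background on each parental array, and 12 to 15 on each transduced array. None of the 15 tested passed in any pairwise comparison, while KRT4 and KRT14 passed the F test (limma adjusted p = 0.032 and 0.036). KRT4, a keratin of stratified mucosa, was at log2 levels of 2.04, 1.94 and 2.72 in parental A549, 1.62, 1.81 and 2.36 in the colony cells and 0.76, 0.92 and 1.03 in the SN cells, where every array lay below the other 6. KRT14, a basal keratin, was above background on no parental array, 1 of 3 colony arrays and 3 of 3 SN arrays. Its F test used parental values below background, so that it does not show how far the groups differ. The SN levels of -4.04, -3.97 and -4.57 lay close to the lowest signals called above background on the parental arrays, -4.25, -4.34 and -4.01. KRT6A, a keratin of wounded and stratified epithelium, and its partner KRT16 passed no test. All 4 are named here after their values were seen. KRT6A was above background on no parental array and on all 6 transduced arrays, at log2 levels of 3.08, -0.62 and -3.13 in the colony cells and 2.38, 0.55 and -2.25 in the SN cells. With the parental arrays set to the lowest signal called above background, it was at least 15.7-fold higher in the colony cells and at least 21.5-fold higher in the SN cells. Limma gave adjusted p of 0.080 and 0.066 on the values as measured, with the parental arrays below background, and these do not apply to the bounds. In each transduced group replicate 1 was the highest and replicate 3 the lowest, and without replicate 1 the bounds were 5.00-fold and 10.2-fold. KRT16 had the same order, at -1.65, -2.39 and -3.09 in the colony cells and -1.92, -2.41 and -3.50 in the SN cells. It was at least 3.30-fold and 2.81-fold higher than parental A549. Its limma adjusted p of 0.067 and 0.13 likewise came from the values as measured. KRT6A, KRT6B and KRT6C are nearly identical in sequence, so that the KRT6A probe may report more than one of them.

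**Figure D3:**
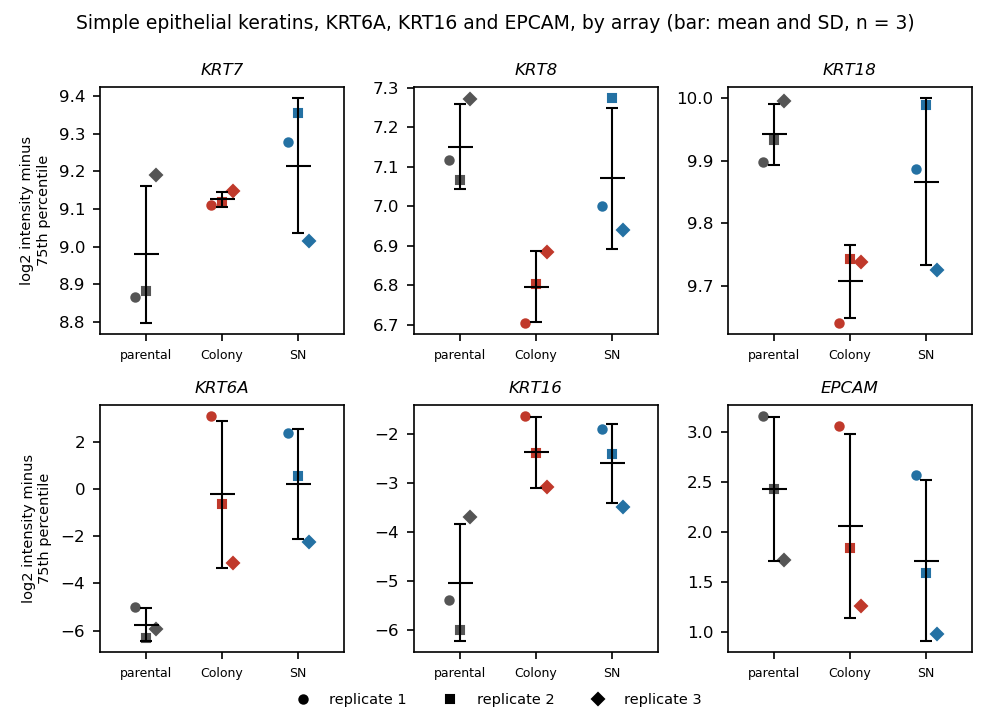
Log2 intensity minus the array's 75th percentile on each array for KRT7, KRT8, KRT18, KRT6A, KRT16 and EPCAM, by group, with replicates 1, 2 and 3 as circles, squares and diamonds and the mean and SD as black bars. The first 3 genes vary over less than 0.6 in all 9 arrays; KRT6A and KRT16 are not above background on the parental arrays, and in the transduced groups they and EPCAM are highest in replicate 1 and lowest in replicate 3, on separate vertical scales.

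By the probe used here, none of the polarity genes, epithelial regulators or protease genes passed a test. PARD6B stood at 0.24 and -0.05. LLGL2, a basolateral polarity protein, stood at -0.46 (limma adjusted p = 0.19) in the colony cells and -0.54 (adjusted p = 0.23) in the SN cells, while its other probe gave -0.96 ± 0.14 (SE; adjusted p = 0.027) and -0.97 ± 0.16 (adjusted p = 0.0504). GRHL1, a grainyhead transcription factor, was at -2.15, -2.11 and -2.77 in parental A549, -1.75, -1.61 and -1.64 in the colony cells and -1.58, -1.71 and -1.51 in the SN cells, above all parental arrays in both, by 0.68 (limma adjusted p = 0.091) and 0.74 (adjusted p = 0.13). ELF3, an ETS factor of epithelial cells, stood at -0.48 and -0.56, and ESRP2, an epithelial splicing regulator, at 0.05 and 0.17. SPINT2, which encodes a Kunitz inhibitor of membrane serine proteases, stood at -0.19 (limma adjusted p = 0.51) and -0.37 (adjusted p = 0.35), and ST14, encoding matriptase, at -0.12 and 0.10. Several members were at the limit of detection: RAB25 and OVOL1 were above background on no array, GRHL2 on 1, SPINT1 on 4 and ESRP1 on 5 of the 9. For ESRP1, the other epithelial splicing regulator, the arrays above background were 1 of 3 in parental A549, 1 of 3 in the colony cells and 3 of 3 in the SN cells. Its mean in the SN cells exceeded the parental one by 0.43, and the parental values lay near the lowest signals called above background on their arrays.

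In the comparison of colony with SN cells, no member and no probe at all passed an adjusted p under 0.05 in limma (0% of 31746 probes). The test was unpaired. Passage labels of colony and SN arrays match by replicate number, but the labels do not state whether these arrays are pairs. At an unadjusted p under 0.05, 7 of the 41 members tested were higher and 2 lower in the colony cells, beside 19.5% of all probes in either direction. The smallest adjusted p of a member was 0.10. Over the members the median difference was 0.03, against -0.03 over all genes, with 23 higher and 18 lower. The arrays of the groups did not overlap for 15 members, 10 higher and 5 lower in the colony cells, against 30.8% of all probes. Of the genes named above, CLDN1, KRT19, KRT80, MARVELD2 and OCLN were among the 10. Counting only members detected on all 3 arrays of the group with the higher mean, the largest differences in the remaining roles were those of PARD6B, a polarity scaffold, at 0.29 (limma adjusted p = 0.16), EVPL, the linker protein envoplakin, at -0.39 (adjusted p = 0.23), ESRP1 at -1.12 as measured (adjusted p = 0.14) and ST14 at -0.23 (adjusted p = 0.34). Among the adhesion molecules the largest difference was that of EPCAM, at 0.34, which ran from -0.16 to 0.77 with 1 array left out. Without OSK-A549-SN replicate 3, the array alone on its slide, the difference of EVPL was -0.25. ESRP1 was at log2 levels of -4.16, -4.95 and -5.10 in the colony cells and -3.70, -3.68 and -3.49 in the SN cells, lower in every colony array. It was above background on 1 of the 3 colony arrays, and with the others set to their lowest signal called above background it was lower than in the SN cells by at least 0.58 on the log2 scale.

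**Figure D4:**
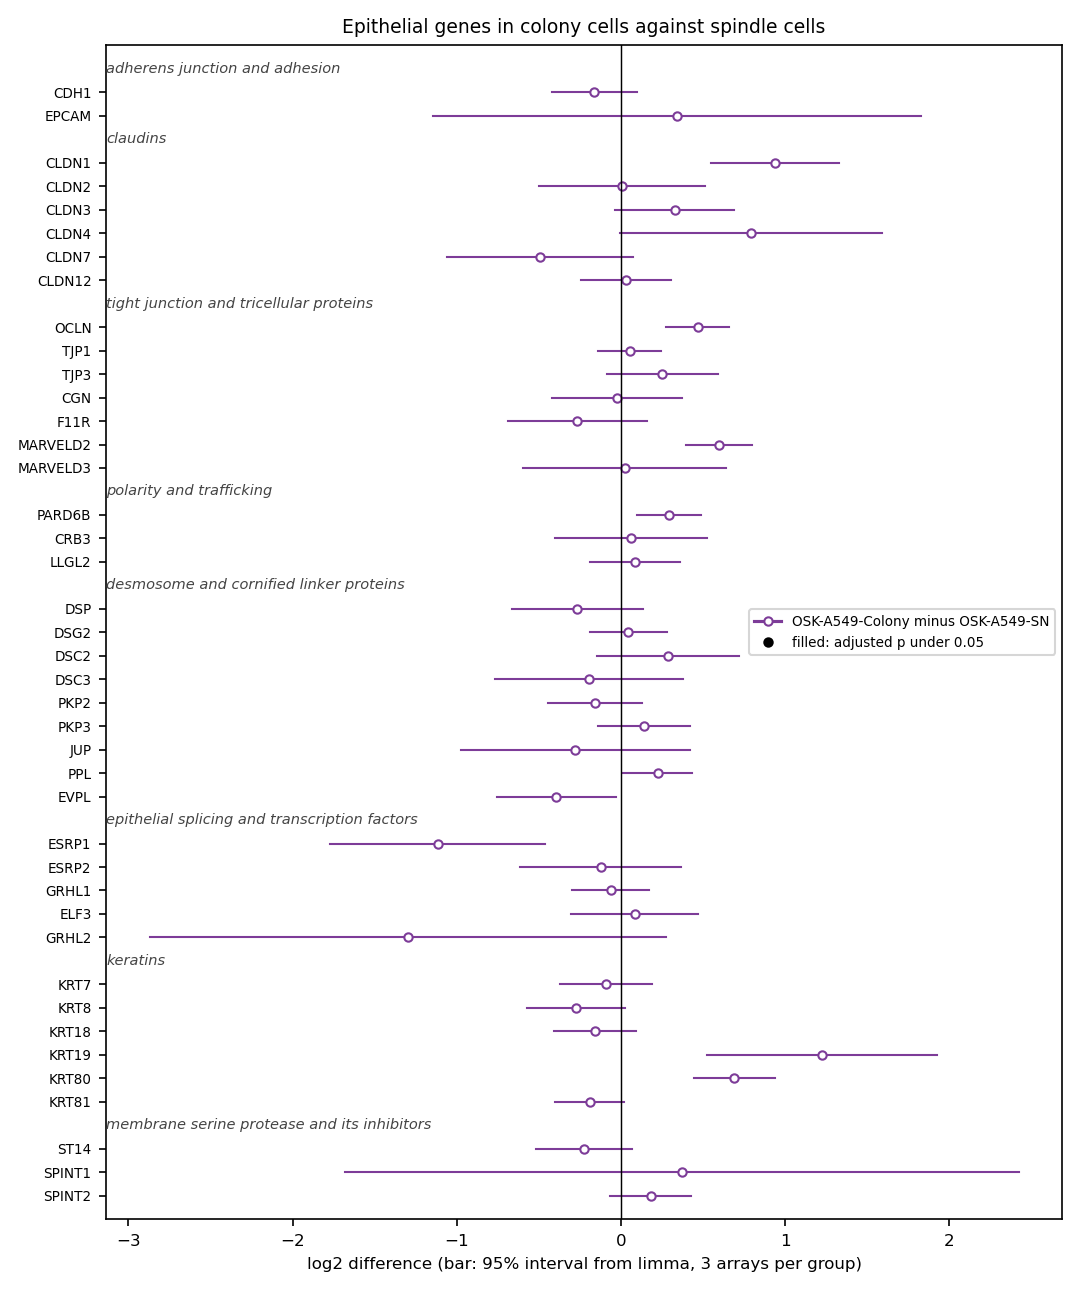
Log2 difference, OSK-A549-Colony minus OSK-A549-SN, for each tested member, grouped by role, with 95% intervals from limma on 3 arrays per group. No point is filled, since none passed an adjusted p under 0.05; CLDN1, KRT19, KRT80, MARVELD2 and OCLN are among those to the right of 0 with intervals that exclude it, and the interval of CDH1 includes 0.

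Beyond the 43 genes, 39 other junction genes were tested in the colony cells and 38 in the SN cells. Those that passed an adjusted p under 0.05 in a pairwise test were VCL, encoding the actin linker vinculin, and GJA1, encoding the gap junction protein connexin 43, which are named after their values were seen. VCL rose by 0.99 ± 0.10 (SE; limma adjusted p = 0.017) in the colony cells and by 0.86 ± 0.13 (adjusted p = 0.045) in the SN cells. GJA1 rose by 0.89 ± 0.17 (limma adjusted p = 0.040) in the colony cells, and its difference in the SN cells was 0.69 (adjusted p = 0.098). AFDN, encoding the nectin-binding protein afadin, passed the F test (limma adjusted p = 0.029) and was lower on all 6 transduced arrays than on every parental one, with differences of -0.34 (adjusted p = 0.087) and -0.57 (adjusted p = 0.088). Of 20 other epithelial regulators, 16 were tested in the colony cells and 15 in the SN cells, and 2 fell in each at an adjusted p under 0.05. ERBB3, a receptor for neuregulins, was the gene that fell by more than 2-fold in both. Its log2 level was 1.97, 1.81 and 2.06 in parental A549, 0.53, 0.42 and 0.43 in the colony cells and 0.05, 0.20 and -0.09 in the SN cells, differences of -1.49 ± 0.11 (SE; limma adjusted p = 0.014) and -1.89 ± 0.15 (adjusted p = 0.020). FOXA1, a forkhead factor, fell by 0.56 in the colony cells (limma adjusted p = 0.046), and GRHL3, a grainyhead factor, fell by 0.94 in the SN cells (adjusted p = 0.043). GRHL3 was at -2.03, -1.82 and -1.71 in parental A549, -2.62, -2.92 and -3.71 in the colony cells and -2.83, -2.77 and -2.80 in the SN cells. For FOXA1 and GRHL3 alike, all 6 transduced arrays lay below every parental one, so that neither fall was particular to 1 group. Both passed the F test, as did ERBB3, KLF5 (limma adjusted p = 0.046) and MAL2 (adjusted p = 0.028). AFDN, FOXA1, GRHL3, KLF5 and MAL2 are named after their values were seen. MAL2, a protein of apical transport, showed the widest gap between colony and SN cells among these regulators. It was at -0.92, -1.26 and -1.16 in the colony cells and -2.48, -3.08 and -3.28 in the SN cells, a difference of 1.83 ± 0.23 (SE; limma adjusted p = 0.10).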

How the data were processed

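The authors hybridised 1 RNA sample per single-colour Agilent array and deposited the spot intensity written by Agilent Feature Extraction 11.5.1.1 (62976 spots), background already subtracted. A table of log2 values, deposited as well, equals those computed here after 1 constant shift per array (100% of probes within 0.001).

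Outlier-flagged spots (463 to 717 per array) and 4259 control spots were left out, no spot being saturated. The log2 intensity was averaged per probe (50599 probes) and the 75th percentile of the array (intensity 217.5 to 270.6) was subtracted. A probe was well above background where at least 0.5 of its spots were flagged positive, significant and above background; 25808 to 29315 were so per array. Gene names came from RefSeq accessions (30275 of 32065 probes matched).

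Each comparison used limma 3.58.1 in R 4.3.3 on its own 6 arrays, over probes above background on at least 1, adjusted by Benjamini-Hochberg over all of them; calls needed an adjusted p under 0.05, or that and a fold over 2. The F test used all 9 arrays. The number of arrays limits the precision. "At least" folds take for each dim array its lowest signal above background, or its own value where that is higher. Start regions were searched with Python 3.11.15. The scripts were tested on simulated data.

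The members and lists were chosen with earlier results of these data known. Genes named are the stained proteins' genes, members past a test, the largest difference per role and comparison, and other listed genes past both thresholds; exceptions are stated. Alternatives were normexp correction (offset 50, on median intensity), quantile normalization, no or a stricter detection filter, 1 fit of all arrays, an intensity trend, replicate number or slide as a block, the deposited table, the mean of a gene's probes, and leaving out each array.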

Additional observations from a re-analysis of the deposited data

Results flagged for a closer look

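CLDN1 moved apart in the transduced groups: every OSK-A549-Colony array lay above all parental A549 arrays and every OSK-A549-SN array below them. The difference between colony and SN cells was 0.94 on the log2 scale (limma adjusted p = 0.11, 0.020 to 0.32 over the alternatives).

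A probe of LLGL2 that was not used, because its mean was lower than that of the other LLGL2 probe, gave -0.96 in OSK-A549-Colony against the parental cells (limma adjusted p = 0.027), whereas the probe used gave -0.46 (adjusted p = 0.19). On all 9 arrays the unused probe was detected, and the cause of the disagreement was not tested.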

How the results depend on the processing

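Under every alternative the median difference of the members moved by less than the spread between arrays, and against parental A549 it kept its sign. The counts of members past an adjusted p under 0.05 moved more. Against parental A549, OSK-A549-Colony had 5; the count was 11 with normexp correction, 13 with the stricter filter, 12 with all arrays in 1 fit, 12 with an intensity trend, 1 with no filter, and 0 to 5 with 1 array left out. Calls over all probes moved the same way, from 2783 to 4275, 5199, 5027, 5257, 678 and 0 to 4182 in that order. At over 2-fold it was 1, and became 2 with normexp correction, 3 with the stricter filter, 1 fit or the trend, 0 with no filter or the mean of a gene's probes, and 0 to 2 with 1 array left out. OSK-A549-SN had 1 member at any fold, and 3 with normexp correction, 5 with the stricter filter or the trend, 10 with 1 fit, 0 with no filter, slide as a block or the mean of the probes, and 0 with any array left out. At over 2-fold it had 1, then 2 with 1 fit and 0 with normexp correction, quantile normalization, no filter, slide as a block, the mean of the probes or any array left out. Between colony and SN cells the count of 0 became 3 with normexp correction or the stricter filter and 4 with the trend, and at over 2-fold 1 with normexp correction or the trend; it was 0 with each array left out. The F test's 10 became 5 with no filter, 17 with the stricter filter, and 2 to 9 with 1 array left out. Calls over all probes at an adjusted p under 0.05 moved too. They ran from 0 to 3200 in OSK-A549-SN, against 586, from 0 to 933 between colony and SN cells, against 0, and from 986 to 5993 in the F test, against 3778.

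With replicate number as a block, no member passed in any pairwise comparison, against 5 and 1 without it, no probe at all passed in these comparisons, and the F test passed 3 members. Deviations of same-numbered OSK-A549-Colony and OSK-A549-SN arrays correlated at 0.239, 0.0732 and 0.138 over 23758 probes. Those of parental and colony arrays correlated at -0.0070, -0.053 and -0.016, so that the numbers were not shown to pair parental with colony samples. Each colony array correlated best with the SN array of its own number, and the passage labels of colony and SN arrays match by number. By the methods, SN cells were collected from dishes whose colonies were then picked. The labels do not state whether same-numbered colony and SN arrays are pairs.

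Of 60 differences named for single genes, 5 changed sign under some alternative (9 of 935 recomputed values), all with intervals that include 0: OCLN in colony against parental cells (0.012 with quantile normalization, 0.10 with the mean of its probes), MARVELD2 in the same comparison (0.032 with quantile normalization, -0.067 to 0.0066 with 1 array left out), KRT8 in SN against parental cells (0.043 with the mean of its probes), EPCAM in colony against parental cells (-0.88 to 0.018 with 1 array left out) and EPCAM in colony against SN cells (-0.026 with slide as a block, -0.16 to 0.77 with 1 array left out). The causes were not tested. MARVELD3, at over 2-fold against parental A549, was dim, and both its calls were lost with normexp correction; in the colony cells its 2-fold call rests on 2 arrays not above background.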

Other observations

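EPCAM had its highest value in replicate 1 and its lowest in replicate 3 in all 3 groups. Of the 23758 probes detected on every array, 800 (3.37%) had 1 order of the replicates in all groups, and 10 of these had a range over 1 on the log2 scale in every group. Those 10 included probes of CEACAM5, CEACAM6, CEACAM7 and CEACAM3, members of the carcinoembryonic antigen family of cell adhesion molecules, and of FXYD3, SLC26A9 and DNM3. The log2 level of CEACAM6 was 4.54, 3.78 and 3.41 in parental A549 replicates 1, 2 and 3, 6.99, 5.64 and 4.69 in those of OSK-A549-Colony and 6.25, 5.63 and 4.24 in those of OSK-A549-SN. CEACAM5 was at -0.12, -1.68 and -2.18, at 3.35, 1.23 and -0.22, and at 1.00, 0.56 and -0.80 in the same order. KRT6A, which is not among the 10 because parental A549 did not show it above background, had this order in both transduced groups.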
